A study of Homo sapiens with 4 samples.

Results

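The collagens are the genes whose name in the count files is COL, a number, A and a number. The files name 44 of them among 60617 listed genes, 38 of the 44 had at least 10 counts summed over the libraries, and 34 passed the filter on low counts and were tested. They were measured in U87MG, an established human glioblastoma cell line, grown as spheres for 14 days in DMEM/F12 medium holding the N2 supplement, 2% B27 and the growth factors EGF and bFGF, each at 20 ng/ml. One group of 2 libraries was untreated, and the other group of 2 libraries was given abemaciclib, a drug that blocks the kinases CDK4 and CDK6, which drive entry into the cell cycle. Both groups are the same cell line without a genetic change named in the labels, and the drug dose and the handling of the untreated spheres are not stated in the labels read here. The labels do not say whether the libraries came from separate cultures, so p-values measure the spread between these libraries alone, which may be technical.

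Collagens are secreted or membrane proteins whose chains wind into a helix built on repeats of glycine and other residues. Fibrillar collagens form the banded fibres of connective tissue, type IV collagen forms the sheet of the basement membrane, type VI forms beaded filaments that link the membrane to the fibres, and FACIT collagens bind to the surface of fibrils. In the brain most collagen lies around blood vessels, and glioblastoma cells of mesenchymal character are known to make collagens of their own. The genes were divided by these roles into 11 fibrillar, 6 type IV, 5 type VI, 10 FACIT and 12 other collagens, the last holding anchoring, short-chain, transmembrane and multiplexin types.

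Library totals ran from 23684260 to 33418075 counts, and the floor used here, 3 counts in 1 library, equals 0.0898 to 0.127 CPM (counts scaled to the library size). Mitochondrially encoded genes held 4.27% and 4.66% of the untreated counts and 11.8% and 11.7% of the abemaciclib counts, and with these genes left out the collagen calls below were the same in number, 25 lower and 7 higher. The marker counts that follow are to be read against the 39.3% of all tested genes that fell and the 38% that rose. Of 10 glioma and astroglial markers 7 were tested, of which 6 fell and 1 rose. The summed level of the list went from 7804 and 7216 CPM to 4982 and 5034 CPM. VIM (-0.45 ± 0.04), CD44 (-1.48 ± 0.03) and NES (-0.50 ± 0.04) were the 3 highest in CPM. GFAP, the astrocyte filament, was at most 0.295 CPM, and S100B and AQP4 were at or under the floor in every library. Among 11 endothelial markers 1 of the 7 tested fell, PECAM1 (9.78 and 9.78 CPM untreated, 1.37 and 0.915 CPM treated), 3 rose, VWF (0.40 ± 0.15), KDR (0.83 ± 0.10) and ERG (1.65 ± 0.27), and 3 did not pass. CDH5, TIE1 and CLDN5 had 10 counts or fewer in all (these, like the low astroglial genes, were named after their values were seen), and the summed level of the list was 28.4 and 30.7 CPM untreated and 30.2 and 30.7 CPM treated. Of 11 macrophage markers 5 were tested. CD68 (1.10 ± 0.03), CD163 (2.05 ± 0.39) and PTPRC (2.21 ± 0.59) rose, and CSF1R (-1.02 ± 0.12) and CD14 (-1.11 ± 0.45) fell. AIF1 had 0 counts. The summed level of the list went from 525.1 and 515.5 to 1108 and 1081 CPM, nearly all of it from the lysosomal gene CD68. Of 14 fibroblast and pericyte markers outside the collagens 12 were tested, of which 6 fell (50%), 3 rose (25%) and 3 did not pass. DCN and LUM of that list are also among the fibril-binding proteins below and FAP among the proteases. Its summed level went from 2405 and 2380 CPM to 867.3 and 844.2 CPM. Most of that fall lay in the 3 highest genes, NOTCH3 (-2.08 ± 0.03), PDGFRB (-2.16 ± 0.03) and DCN (-2.79 ± 0.04). The median log2 fold change of the list was -0.16. The 3 that rose, named after their values were seen, were ABCC9 (1.27 ± 0.09), CSPG4 (0.31 ± 0.04) and ACTA2 (0.12 ± 0.04). Every library is labelled as the same cell line, so a marker read here does not name a second cell type in the spheres. The part of the cells behind these marker values in the collagen values was not tested. In these bulk libraries fewer cells in a given state and less RNA per cell cannot be told apart.

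The collagen genes were mostly lower after abemaciclib. Of the 34 tested, 25 fell, 7 rose and 2 did not pass an adjusted p of 0.05 in edgeR's quasi-likelihood test. Among all 17207 tested genes 77.3% passed, made up of 39.3% that fell and 38% that rose. A fall of at least 2-fold was seen in 18 collagens (17.4% of all tested genes) and of at least 4-fold in 8 (7.35% of all). A rise of at least 2-fold was seen in 4 collagens, against 13.8% of all genes. The median log2 fold change was -1.24 over the 34 collagens and -0.01 over all genes. In 32 of the 34 all treated values lay on one side of all untreated values, as they did in 87.9% of all tested genes.

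**Figure D1:**
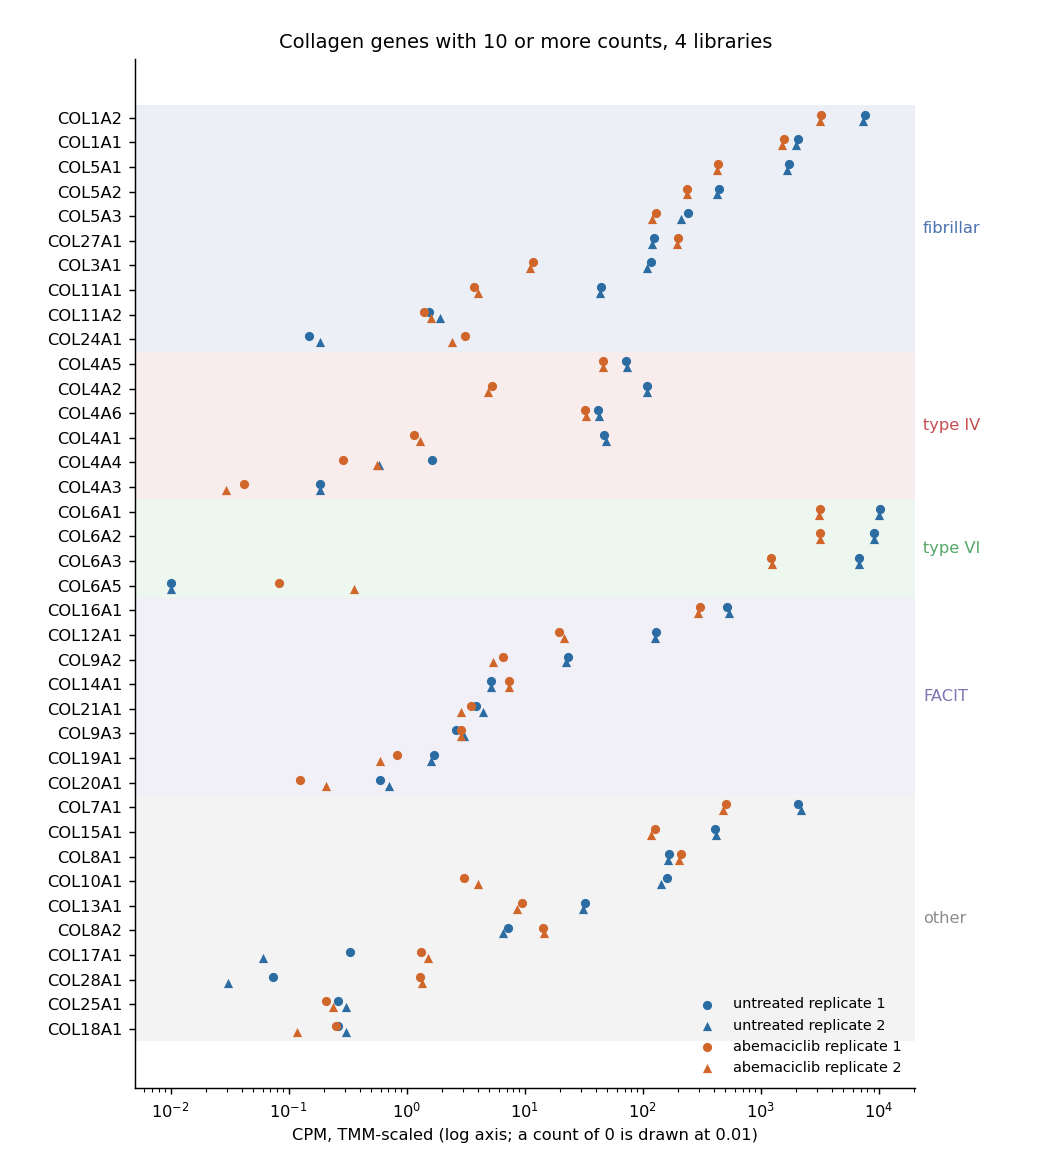
Level of each collagen gene with 10 or more counts, by class, in the 4 libraries (TMM-scaled CPM, log axis, circles for replicate 1 and triangles for replicate 2). Type VI genes and COL1A2 lie highest, and the treated points lie left of the untreated ones in most rows, with COL24A1, COL17A1 and COL28A1 the clearest exceptions.

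Summed over all 44 genes, collagens held 4.14% and 4.09% of the counts of the untreated libraries and 1.49% and 1.48% of the abemaciclib libraries. On the scale of CPM with TMM scaling (a correction for library composition), the sum was 42181 and 41762 untreated and 14677 and 14482 treated. This is a 2.88-fold lower sum, far beyond the spread within a group. By class the summed level was 3.44-fold lower for type VI, 3.41-fold for the other collagens, 3.20-fold for type IV, 2.11-fold for fibrillar and 2.03-fold for FACIT collagens. The sums were not tested, since an exact two-sided permutation test cannot give a p below 0.333 with 2 libraries against 2.

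**Figure D2:**
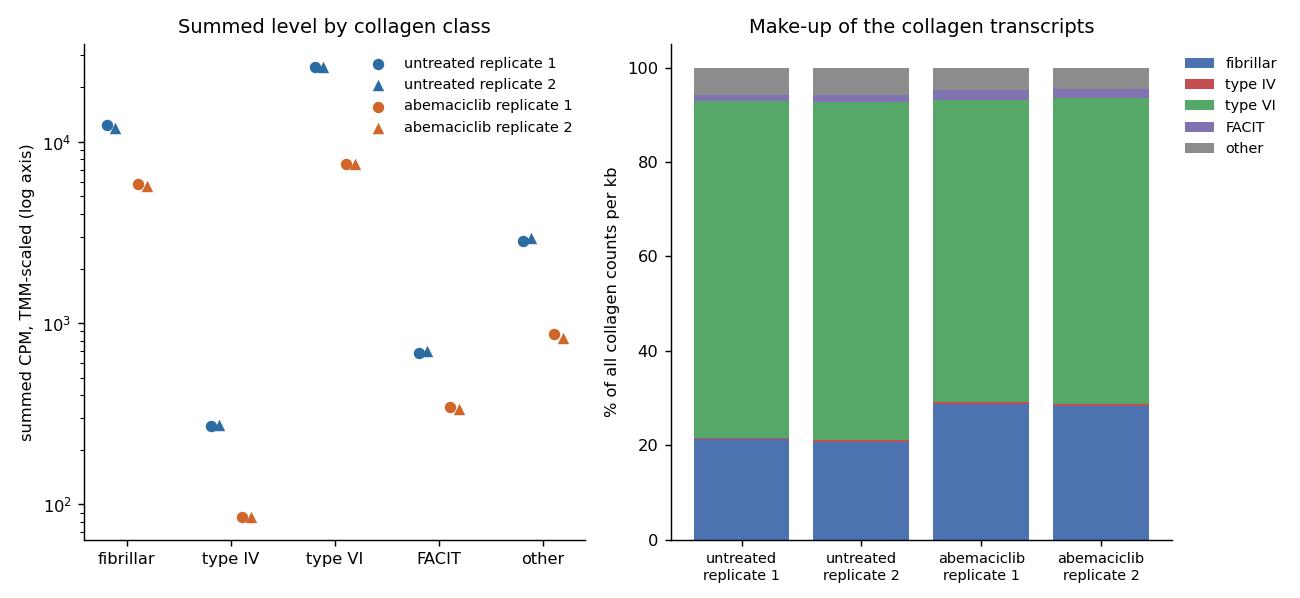
Left, summed level of each collagen class in every library (TMM-scaled CPM, log axis). Right, share of each class among all collagen counts per kb of merged exons, in percent. The replicates lie close together, every class is lower after abemaciclib, and the fibrillar share is larger there (28.3% and 28.7%) than in untreated spheres (20.7% and 21.2%).

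Compared per kb of merged exon length, which allows genes to be set side by side, type VI made up 71.3% and 71.6% of the collagen transcripts in untreated spheres and 64.1% and 64.8% after the drug. The fibrillar share was 21.2% and 20.7% untreated and 28.7% and 28.3% treated. COL1A1 and COL1A2 together account for most of that share. COL1A1 went from 3.78% and 3.68% to 8.28% and 8.02% of all collagen counts per kb, and COL1A2 from 12.4% and 12.2% to 14.9% in both treated libraries. Type IV genes were a small part throughout, between 0.355% and 0.407%.

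Promoter stretches are shown for 6 genes with unlike responses, so that some that fell can be read beside some that rose. They are examples and not the 6 furthest changed genes. They come from the RefSeq table of promoter windows (GRCh38.p14, 250 bases before to 50 after a transcript start), which held 44 windows for 32 of the collagens. COL1A1, COL1A2, COL2A1, COL3A1, COL5A2, COL6A1, COL6A5, COL8A1, COL9A3, COL14A1, COL20A1 and COL22A1 had no window in it. The stretches stop before the transcript start and hold no annotated exon, and capitals mark a match on either strand to one of the motifs given after them. COL10A1, one of the genes that fell furthest, has several windows and is shown from that at chr6:116126134-116126382, minus strand. COL7A1 (chr3:48595330-48595579, minus strand) and COL6A2 (chr21:46097862-46098096, plus strand) are abundant genes that fell. COL4A5 (chrX:108439588-108439837, plus strand) is a type IV gene that fell little. COL27A1 (chr9:114155287-114155536, plus strand) and COL28A1 (chr7:7535874-7536123, minus strand) rose.
COL10A1: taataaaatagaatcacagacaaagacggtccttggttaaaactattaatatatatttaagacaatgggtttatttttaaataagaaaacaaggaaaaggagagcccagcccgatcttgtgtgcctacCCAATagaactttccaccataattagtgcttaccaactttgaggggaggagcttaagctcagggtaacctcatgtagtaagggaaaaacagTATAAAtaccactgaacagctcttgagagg
COL7A1: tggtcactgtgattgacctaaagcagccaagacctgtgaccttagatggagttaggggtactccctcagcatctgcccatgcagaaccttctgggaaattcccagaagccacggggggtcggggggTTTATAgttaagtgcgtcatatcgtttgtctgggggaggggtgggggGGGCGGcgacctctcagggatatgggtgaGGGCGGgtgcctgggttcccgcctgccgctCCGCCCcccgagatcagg
COL6A2: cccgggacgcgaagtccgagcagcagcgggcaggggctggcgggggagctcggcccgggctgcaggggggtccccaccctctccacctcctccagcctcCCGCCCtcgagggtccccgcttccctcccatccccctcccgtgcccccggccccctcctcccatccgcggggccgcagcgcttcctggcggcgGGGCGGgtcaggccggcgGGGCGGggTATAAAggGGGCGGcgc
COL4A5: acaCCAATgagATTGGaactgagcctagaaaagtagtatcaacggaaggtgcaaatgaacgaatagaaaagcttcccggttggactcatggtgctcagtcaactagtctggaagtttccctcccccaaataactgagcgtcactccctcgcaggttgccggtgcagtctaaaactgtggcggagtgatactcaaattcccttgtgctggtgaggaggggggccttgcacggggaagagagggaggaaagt
COL27A1: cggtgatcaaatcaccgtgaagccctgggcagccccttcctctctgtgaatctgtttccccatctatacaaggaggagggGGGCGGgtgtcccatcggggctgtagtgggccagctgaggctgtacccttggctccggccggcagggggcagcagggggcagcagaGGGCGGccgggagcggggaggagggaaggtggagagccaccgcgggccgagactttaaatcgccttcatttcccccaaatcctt
COL28A1: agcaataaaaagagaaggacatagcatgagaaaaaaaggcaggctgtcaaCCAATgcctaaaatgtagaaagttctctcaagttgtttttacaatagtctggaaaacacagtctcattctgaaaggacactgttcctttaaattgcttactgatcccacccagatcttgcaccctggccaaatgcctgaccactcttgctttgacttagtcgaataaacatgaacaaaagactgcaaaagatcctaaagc

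Searched on both strands over the whole 300-base windows, with overlapping matches allowed, GGGCGG was in 54.5% of the 44 collagen windows and in 45% of all 35116 windows of the table. CCAAT was in 31.8% of the collagen windows and 34.6% of all windows. TATAAA was in 18.2% and 11.5%, TGANTCA in 2.27% and 7.71%, and ACGTG in 15.9% and 21.4%. Counted by gene, some of which have several windows, GGGCGG was in 13 of the 19 collagens with a window that fell and in 3 of the 5 that rose. CCAAT was in 7 and 2 of these genes, TATAAA in 4 and 1, TGANTCA in 1 and 0, and ACGTG in 3 and 0. The gene with TGANTCA is COL10A1, through another window that is not printed (start site 116158772, with 2 TGANTCA and 2 TATAAA). The stretches of COL10A1 and COL28A1 are AT-rich, with 37.3% and 39.6% G and C, and that of COL6A2 is GC-rich at 79.6% with 4 copies of GGGCGG. COL10A1 fell 42.2-fold and COL28A1 rose. A match of letters is a description of the window and not a site.

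Type VI collagen was the most abundant collagen of these spheres and fell in all its detected main chains. COL6A1 (ENSG00000142156, GRCh38 chromosome 21, 45981737 to 46005050) stood at 10161 and 10031 CPM untreated and 3177 and 3126 CPM after abemaciclib. COL6A2, its neighbour on the same chromosome (ENSG00000142173, 46098097 to 46132849), stood at 9052 and 9044 CPM and then at 3147 and 3192 CPM. COL6A3 (ENSG00000163359, chromosome 2, 237324003 to 237414375), the long chain whose end is released as endotrophin, stood at 6821 and 6843 CPM and then at 1224 and 1238 CPM. In each of these genes both treated libraries lie far below both untreated ones, and replicates lie close together. The log2 fold changes were -1.68 ± 0.03 (SE) for COL6A1, -1.51 ± 0.03 for COL6A2 and -2.47 ± 0.03 for COL6A3, with edgeR adjusted p-values from 2.89e-28 down to 1.91e-33. Per kb, COL6A1 ranked 18 and 17 among 17041 genes with a length when untreated and 40 and 43 when treated, and COL6A2 ranked 19 and 20, then 41 in both. COL6A5, another chain of the family, had 0 counts untreated and 2 and 12 counts treated, at least 4.81-fold higher when the untreated group is set to a summed floor of 3 counts. It was not tested by the main filter, and 12 of its 14 counts came from 1 library. COL6A6 had 0 counts in every library.

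Chains that assemble together did not fall by the same amount. The ratio of COL6A3 to COL6A1 in counts per kb was 0.183 and 0.186 untreated and 0.105 and 0.108 treated. That of COL6A1 to COL6A2 was 1.13 and 1.12 and then 1.02 and 0.987, and with the longest transcript as the length it averaged 0.911 and then 0.812, so which of these chains is higher depends on the length used. For both ratios the groups do not overlap, and the shift between the groups does not depend on the length. The same holds for the ratios of types I, IV, V, VIII and IX below, of which 8 were computed in all. The ratios were not tested.

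**Figure D3:**
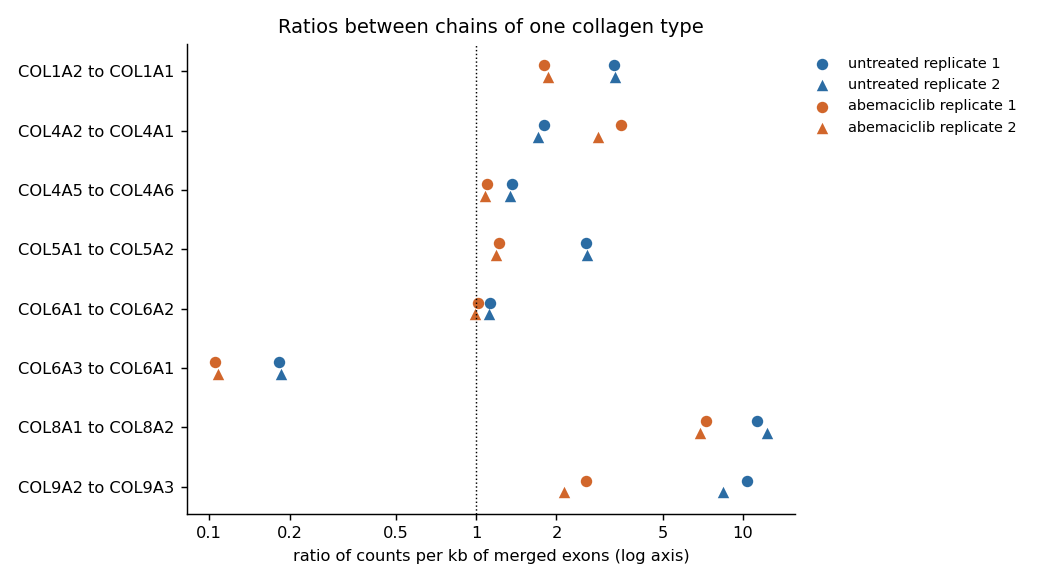
Ratio of counts per kb of merged exons between chains of one collagen type in the 4 libraries (log axis, dotted line at 1). In all 8 pairs the treated libraries lie apart from the untreated ones, and only the ratio of COL4A2 to COL4A1 moved up.

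Fibrillar collagens gave 7 genes that fell, 2 that rose and 1 that did not pass among 10 tested. The counts of this and the following classes are to be read against the 39.3% of all tested genes that fell and the 38% that rose. Type I collagen, the main collagen of bone, skin and tendon, came next to type VI in level per kb. COL1A2 (ENSG00000164692, chromosome 7, 94394561 to 94431232) stood at 7609 and 7395 CPM untreated and 3224 and 3179 CPM treated, and COL1A1 (ENSG00000108821, chromosome 17, 50183289 to 50201632) at 2047 and 1968 CPM and then 1575 and 1509 CPM. Both fell beyond their spread, COL1A2 by 1.23 ± 0.03 on the log2 scale and COL1A1 by 0.38 ± 0.03 (edgeR adjusted p = 7.76e-26 and 1.58e-12). The ratio of COL1A2 to COL1A1 per kb was 3.27 and 3.31 untreated and 1.80 and 1.85 treated. The type I molecule usually holds more COL1A1 than COL1A2 chains, and the transcripts here had the opposite order in every library.

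COL3A1, which encodes type III collagen and shares fibrils with type I, fell further. It stood at 116.4 and 108.6 CPM untreated and at 11.6 and 11.1 CPM treated (-3.31 ± 0.06 on the log2 scale, edgeR adjusted p = 4.05e-30). COL5A2, its neighbour on chromosome 2, fell less, from 443.4 and 423.4 CPM to 238.5 and 236.7 CPM (-0.87 ± 0.03). Type V collagen starts and limits the growth of type I fibrils, and its 3 genes also fell by unlike amounts. COL5A1, the gene mutated in classic Ehlers-Danlos syndrome (ENSG00000130635, chromosome 9, 134641774 to 134844843), stood at 1716 and 1654 CPM and then at 437.5 and 421.5 CPM (-1.97 ± 0.03, edgeR adjusted p = 9.37e-31). COL5A3 went from 239.5 and 211.2 CPM to 129.6 and 119.7 CPM (-0.86 ± 0.08). The ratio of COL5A1 to COL5A2 per kb was 2.58 and 2.60 untreated and 1.22 and 1.19 treated.

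Type XI collagen is the minor fibrillar collagen of cartilage. COL11A1 stood at 44.4 and 43.5 CPM untreated and at 3.70 and 4.01 CPM treated (-3.50 ± 0.09, edgeR adjusted p = 8.72e-26), the furthest fall among the fibrillar genes tested. Its partner COL11A2 was low throughout, 1.56 and 1.93 CPM against 1.41 and 1.59 CPM, and these values overlap (-0.21 ± 0.27, edgeR adjusted p = 0.478). COL2A1, the type II collagen of cartilage, had 3 counts over the untreated libraries and 0 over the treated ones.

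COL24A1 and COL27A1 belong to a separate branch of fibrillar collagens with shorter or interrupted helices, and both rose. COL27A1 (ENSG00000196739, chromosome 9, 114155560 to 114312511) stood at 123.2 and 120.5 CPM untreated and at 198.9 and 194.5 CPM treated (0.69 ± 0.03, edgeR adjusted p = 3.4e-18). COL24A1 stood at 0.148 and 0.183 CPM, which is 4 and 6 counts, and then at 3.12 and 2.42 CPM, which is 75 and 82 counts (4.00 ± 0.38, edgeR adjusted p = 5.57e-11). Both treated libraries lie above both untreated ones in each gene, but the untreated COL24A1 level rests on few counts.

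Among the type IV genes all 5 tested fell, and the fall differed greatly between the gene pairs. COL4A1 and COL4A2 encode the chains of the common basement membrane and lie head to head on chromosome 13, with 126 bases between their RefSeq start sites (110307158 to 110307283). COL4A1 (ENSG00000187498, chromosome 13, 110148963 to 110307233) stood at 46.5 and 48.8 CPM untreated and at 1.16 and 1.3 CPM treated. COL4A2 (ENSG00000134871, 110305812 to 110513209) stood at 108.9 and 108.8 CPM and then at 5.32 and 4.87 CPM. These are falls of 5.26 ± 0.11 and 4.43 ± 0.06 on the log2 scale, or 38.3-fold and 21.5-fold (edgeR adjusted p = 5e-28 and 5.25e-32). The 126 bases between the starts hold 1 CCAAT and 1 GGGCGG, and 80.2% of them are G or C. Some GENCODE transcripts of both genes start within them, so the stretch is not printed.

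COL4A5 and COL4A6 lie head to head on chromosome X, with 379 bases between the closest RefSeq start sites, and their chains form a network found in some epithelial and smooth muscle basement membranes. COL4A5 (ENSG00000188153, 108439844 to 108697545) stood at 72.1 and 73.0 CPM untreated and at 45.7 and 45.6 CPM treated (-0.67 ± 0.04). COL4A6 (ENSG00000197565, 108155607 to 108439497) stood at 41.6 and 42.7 CPM and then at 32.5 and 33.1 CPM (-0.36 ± 0.06, edgeR adjusted p = 7.39e-07). The groups do not overlap in either gene, and the falls are small beside those of COL4A1 and COL4A2. In counts per kb the pair COL4A1 and COL4A2 made up 45% and 45.2% of the type IV transcripts untreated and 4.58% and 4.36% treated. COL4A5 and COL4A6 made up 54% and 54.4% and then 95% and 94.9%. Which pair was larger in untreated spheres depends on the length used. Per kb of the longest transcript the untreated means were 7.21 (COL4A1), 16.8 (COL4A2), 11.2 (COL4A5) and 6.24 (COL4A6) CPM, so that COL4A1 and COL4A2 were the larger pair. The treated means were 0.186, 0.784, 7.04 and 4.86 CPM in the same order, with COL4A5 and COL4A6 the larger pair by either length. The ratio of COL4A2 to COL4A1 rose from 1.79 and 1.70 to 3.49 and 2.86, with only 28 and 44 counts of COL4A1 in the treated libraries.

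COL4A3 and COL4A4, which encode chains of the kidney filter and are among the genes mutated in Alport syndrome, lie head to head on chromosome 2 and were scarcely detected. COL4A4 had 44 and 19 counts untreated and 7 and 19 treated, a call (-1.27 ± 0.48, edgeR adjusted p = 0.0234) that was lost without untreated replicate 1 (-0.39, edgeR adjusted p = 0.575) and without abemaciclib replicate 1 (edgeR adjusted p = 0.0676). Its fold change was -1.88 on the log2 scale without untreated replicate 2 and -1.87 without abemaciclib replicate 2. COL4A3 had 5 and 6 counts untreated and 1 in each treated library, a 5.34-fold lower scaled count (exact 95% counting interval 1.16 to 49.5), and was not tested by the main filter. Exons of COL4A2 overlap the antisense genes COL4A2-AS1 and COL4A2-AS2. Exons of COL4A3, COL5A3, COL9A1, COL9A3, COL15A1, COL16A1, COL18A1 and COL19A1 also overlap genes of the other strand, and whether counting used the strand is not known here, so reads of these genes and their partners may be mixed.

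**Figure D4:**
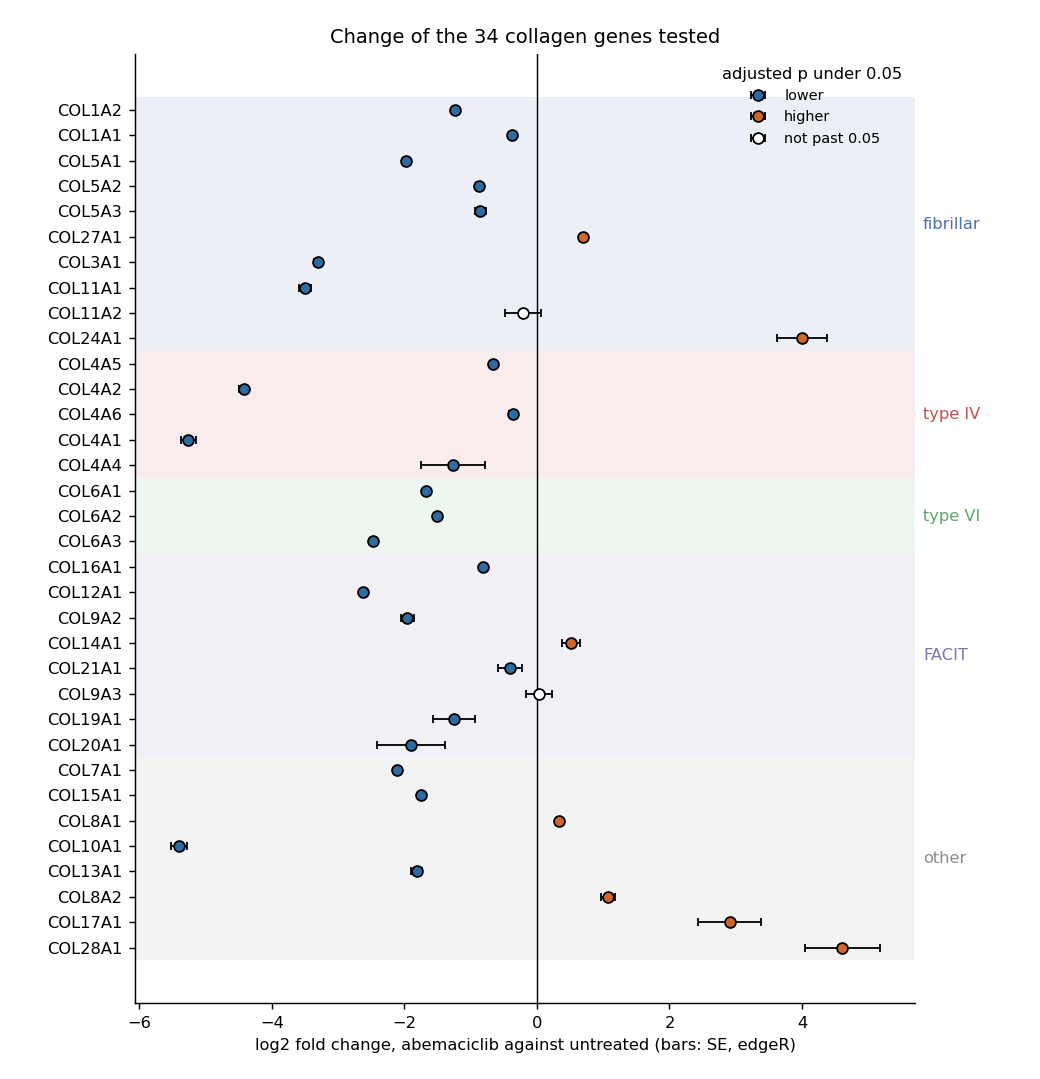
Log2 fold change of the 34 collagen genes tested, abemaciclib against untreated, with bars for the standard error, grouped by class. Filled points passed an adjusted p of 0.05 and open points (COL11A2 and COL9A3) did not, and the type IV genes separate into COL4A1 and COL4A2 at -5.26 and -4.43 and the other 3 at -1.27 or higher.

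Of 8 FACIT genes tested 6 fell, 1 rose and 1 did not pass. COL16A1, a FACIT collagen of fibrils and cell contacts, was the most abundant per kb and stood at 518.1 and 538.7 CPM untreated and at 305.4 and 294.7 CPM treated (-0.82 ± 0.03). COL12A1, which coats type I fibrils under load, stood at 128.5 and 125.8 CPM and then at 19.5 and 21.7 CPM (-2.62 ± 0.05, edgeR adjusted p = 3.85e-29). Its close relative COL14A1 did the opposite and rose slightly, from 5.15 and 5.13 CPM to 7.31 and 7.38 CPM (0.52 ± 0.13, edgeR adjusted p = 6.73e-04). Both treated libraries lie below the untreated ones for COL16A1 and COL12A1 and above them for COL14A1.

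Type IX collagen decorates the fibrils of cartilage. COL9A2 stood at 23.4 and 22.3 CPM untreated and at 6.56 and 5.37 CPM treated (-1.95 ± 0.10), while COL9A3 stood at 2.59 and 3.06 CPM and then at 2.91 and 2.89 CPM, which overlap (0.03 ± 0.20, edgeR adjusted p = 0.889). The ratio of COL9A2 to COL9A3 per kb went from 10.4 and 8.39 to 2.59 and 2.13. The partner of COL9A3 on the other strand is TCFL5. COL9A1 had 1 count untreated and 4 treated. The low genes of the class that passed were COL19A1 (-1.25 ± 0.32), COL20A1 (-1.90 ± 0.51) and COL21A1 (-0.41 ± 0.18). Each of these calls was lost in the DESeq2 Wald test, and that of COL21A1 (edgeR adjusted p = 0.0384) also without untreated replicate 2 (0.210) and without abemaciclib replicate 2 (log2 fold change -0.25, adjusted p = 0.306). COL22A1 had 4 counts, all in 1 treated library.

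The collagens outside these classes went both ways, with 4 of 8 tested genes lower (50%, against 39.3% of all genes) and 4 higher (50%, against 38%). COL7A1, which forms the anchoring fibrils that hold the skin's basement membrane to the dermis (ENSG00000114270, chromosome 3, 48564073 to 48595267), was the most abundant of them. It stood at 2078 and 2181 CPM untreated and at 506.8 and 475.1 CPM treated (-2.12 ± 0.03 on the log2 scale, edgeR adjusted p = 2.27e-27). COL10A1, the short-chain collagen of hypertrophic cartilage (ENSG00000123500, chromosome 6, 116118923 to 116158747), stood at 161.6 and 142.1 CPM and then at 3.03 and 3.99 CPM. Its log2 fold change of -5.40 ± 0.13 was the lowest of the 34 (edgeR adjusted p = 1.16e-07). COL10A1 overlaps NT5DC1, a gene of the other strand, but not its exons. COL15A1, a multiplexin of basement membrane zones, stood at 406.6 and 419.5 CPM and then at 127.9 and 117.4 CPM (-1.76 ± 0.04). COL13A1, a transmembrane collagen of the neuromuscular junction, stood at 32.3 and 30.9 CPM and then at 9.43 and 8.59 CPM (-1.82 ± 0.08). In each of these 4 genes every treated library lies below every untreated one.

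COL8A1 and COL8A2, the short-chain collagens of vessel walls and of the membrane under the corneal endothelium, both rose. COL8A1 stood at 165.4 and 163.1 CPM untreated and at 209.9 and 202.3 CPM treated (0.33 ± 0.03, edgeR adjusted p = 1.99e-10), and COL8A2 at 7.26 and 6.57 CPM and then at 14.3 and 14.6 CPM (1.07 ± 0.10, edgeR adjusted p = 1.03e-10). The ratio of COL8A1 to COL8A2 per kb was 11.3 and 12.3 untreated and 7.27 and 6.90 treated.

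COL17A1 and COL28A1 rose from levels near the floor. COL17A1, the transmembrane collagen of hemidesmosomes, had 9 and 2 counts untreated and 32 and 51 treated (2.91 ± 0.47, edgeR adjusted p = 2.46e-06), and its log2 fold change was 4.45 without untreated replicate 1 and 2.08 without untreated replicate 2. COL28A1, a collagen with von Willebrand factor domains, had 2 and 1 counts untreated and 31 and 46 treated. Its ratio of scaled counts was 26.5 (exact 95% counting interval 8.72 to 131), and the edgeR adjusted p was 1.24e-08. Without untreated replicate 1 its fitted log2 fold change was 5.26, against 4.61 with all libraries. COL18A1, the source of endostatin, and COL25A1 had 27 and 30 counts in all and were not tested, with COL18A1 at 0.259 and 0.306 CPM untreated and 0.249 and 0.118 CPM treated. COL26A1 had 5 counts in all, and COL23A1 had 0 counts in every library. The 7 genes that rose were less expressed in untreated spheres than the 25 that fell, with a median of 5.14 against 127.2 CPM. This compares counts of genes of unlike length and was not tested. The untreated level also enters the fold change that sorted these genes, so the contrast is partly built in. COL24A1, COL17A1 and COL28A1 passed the filter on low counts only through their treated libraries.

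Order among the most abundant genes, compared per kb of merged exons, also moved. In untreated spheres the mean level was 1890 CPM per kb for COL6A1, 1680 for COL6A2, 672.5 for COL1A2, 348 for COL6A3, 204.4 for COL1A1, 192.3 for COL7A1 and 150.6 for COL5A1. After abemaciclib it was 589.8 for COL6A1 and 588.5 for COL6A2, which lie within the spread of their replicates, then 287 for COL1A2 and 157 for COL1A1. COL6A3 (62.7), COL7A1 (44.3) and COL5A1 (38.4) followed, so that COL1A1 stood above COL6A3 in the treated spheres and below it in the untreated ones.

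Genes that make, carry, bind and cut collagen were counted in the same fit, from 8 lists. Each count is to be read against the 39.3% of all tested genes that fell and the 38% that rose. Of the matrix proteins that bind collagen fibrils, 9 of 9 tested genes fell, with a median log2 fold change of -1.99, the lowest of the 8 lists. They include FN1, fibronectin, which fibroblasts need to lay down collagen, at 18657 and 18845 CPM untreated and 5163 and 5261 CPM treated (-1.85 ± 0.03). SPARC, a collagen-binding matricellular protein (-0.86 ± 0.03), DCN, the proteoglycan decorin (-2.79 ± 0.04), and POSTN, periostin (-4.77 ± 0.24), also fell. BGN, the proteoglycan biglycan, had 18.1 and 22.6 CPM untreated and was at or under the floor of 3 counts in the treated libraries. Of 16 basement membrane partners 12 fell and 4 rose (median -0.68). The members highest in CPM averaged over all 4 libraries, without regard to length, were the laminin genes LAMC1 (-0.76 ± 0.03), LAMB2 (-0.45 ± 0.03) and LAMB1 (-0.60 ± 0.03). LAMA5, a laminin chain named after its value was seen, was above LAMB1 in untreated spheres (598.8 against 513.6 CPM) and fell further (-2.52 ± 0.04). SMOC1 (-3.99 ± 0.04) and NID1, a nidogen, which bridges laminin and type IV collagen (-3.83 ± 0.27), fell furthest. The 4 that rose were LAMA3 (1.19 ± 0.08), LAMB3 (0.81 ± 0.03), LAMA2 (0.39 ± 0.07) and NID2 (0.11 ± 0.03). They too were named after their values were seen. NID2, also a nidogen, averaged 240.4 CPM untreated and 258.8 CPM treated, and NID1 averaged 4.97 CPM and then 0.337 CPM.

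Of 23 genes that modify, fold or crosslink collagen 13 fell, 6 rose and 4 did not pass (median -0.35). P4HA1, a catalytic subunit of prolyl hydroxylase (-2.30 ± 0.04), and LOXL2, a crosslinking oxidase (-2.61 ± 0.05), fell furthest. P4HB (-0.42 ± 0.03) and the chaperone FKBP10 (-0.61 ± 0.03) fell less. The 6 that rose, named after their values were seen, were LOXL4 (1.96 ± 0.13), COLGALT2 (1.93 ± 0.09), LOXL1 (0.69 ± 0.03), PPIB (0.42 ± 0.03), CRTAP (0.27 ± 0.03) and P4HA2 (0.10 ± 0.03). P4HA2 averaged 587.1 CPM untreated and 627.6 CPM treated, and P4HA1 averaged 441.0 CPM and then 89.3 CPM. Of 17 genes for export of procollagen from the endoplasmic reticulum 8 fell (47.1%, near the 39.3% of all genes), 3 rose and 6 did not pass, with a median of -0.03 and none past 2-fold. SEC13, a coat protein, fell (-0.65 ± 0.03) and KLHL12, the ligase adaptor for large carriers, rose (0.67 ± 0.05). Of the cargo receptors TMED10 rose (0.29 ± 0.03) and TMED2 fell (-0.14 ± 0.03), and the coat gene SEC24C did not pass (0.03 ± 0.03). Among 6 tested genes of propeptide removal 3 fell, 2 rose and 1 did not pass. PCOLCE, the enhancer of the C-proteinase (-1.14 ± 0.03), and the proprotein protease FURIN (-1.07 ± 0.03) fell, and the relative of PCOLCE, PCOLCE2 (1.27 ± 0.03), and the N-proteinase ADAMTS14 (3.47 ± 0.04) rose. ADAMTS14 stood at 37.3 and 38.4 CPM untreated and at 414.9 and 423.2 CPM treated.

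Of 12 collagen receptors tested 7 fell (58.3%, against 39.3% of all genes), 4 rose (33.3%, against 38%) and 1 did not pass (median -0.44). ITGB1, the shared subunit of the collagen-binding integrins, did not pass (0.03 ± 0.03, edgeR adjusted p = 0.366), while its partner for fibrillar collagen, ITGA11 (-1.79 ± 0.06), and the uptake receptor MRC2 (-0.77 ± 0.03) fell. ANTXR2, a receptor for type VI collagen (-0.48 ± 0.03), and the scarce OSCAR (-1.29 ± 0.51) fell too. The 4 that rose, named after their values were seen, were ITGA2 (1.02 ± 0.06), ANTXR1 (0.23 ± 0.05), ADGRG1 (0.18 ± 0.04) and DDR2 (0.17 ± 0.04). ITGA2 averaged 22.7 CPM untreated and 46.1 CPM treated, and ITGA11 averaged 67.0 CPM and then 19.2 CPM. Of 13 proteases that degrade collagen 6 rose and 5 fell, which is 46.2% and 38.5% and near the 38% and 39.3% of all genes, and 2 did not pass, with a median of 0.48 and a summed level of 10028 and 10149 CPM untreated and 13574 and 13514 CPM treated. MMP14, the membrane collagenase (0.48 ± 0.04), and the lysosomal CTSB (1.08 ± 0.03) rose. So did MMP15 (2.94 ± 0.19), CTSK (2.63 ± 0.03), MMP16 (2.21 ± 0.10) and PEPD (0.66 ± 0.05), named after their values were seen. CTSK averaged 152.5 CPM untreated and 944.0 CPM treated. MMP13 (-4.10 ± 0.12) and MMP9 (-4.52 ± 0.22) fell, from untreated averages of 30.6 and 9.57 CPM. MMP2, the most abundant of the list by counts, fell slightly (-0.08 ± 0.03). Of 20 regulators of collagen transcription 15 fell, 3 rose and 2 did not pass (median -0.50). TGFB1, the main inducer of collagen genes in fibroblasts (-1.18 ± 0.03), TGFB2 (-1.44 ± 0.08), TGFB3 (-0.60 ± 0.03) and TWIST1 (-1.72 ± 0.06) fell. YBX1, a repressor of COL1A2 in fibroblasts, rose (0.34 ± 0.03). The other regulators that rose, TGFBR2 (1.09 ± 0.03) and CREB3L1 (0.79 ± 0.04), were named after their values were seen. All calls on the lists are at an edgeR adjusted p under 0.05 over all genes tested.

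**Figure D5:**
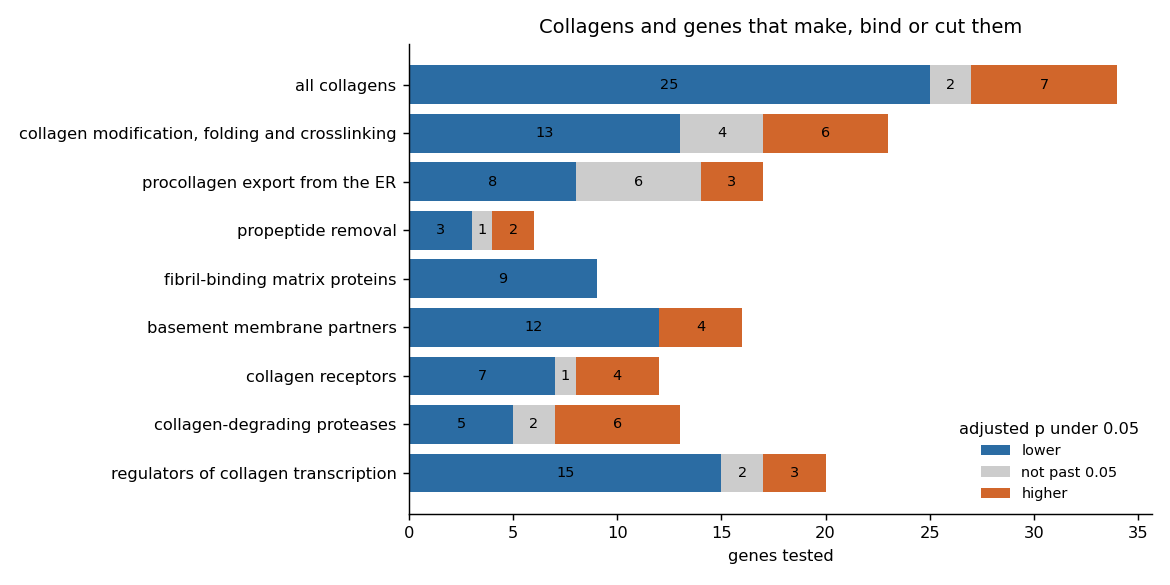
Number of genes tested that were lower, higher or not past an adjusted p of 0.05 after abemaciclib, for the collagens and for 8 lists of genes that make, carry, bind, sense, cut or regulate them. The fibril-binding list has 9 of 9 lower, while 39.3% of all tested genes were lower, and the degrading proteases (6 higher, 5 lower) lie near the shares of all genes.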

How the data were processed

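Each library has 1 deposited file, and per the file headers its values are expected counts per gene, estimates that need not be whole and are not scaled for depth or length. STAR 2.7.2b, RSEM 1.3.1 and GRCh38 are named, per the submitters' processing notes, without settings. Annotation release and strand setting: not given in the sources used here. Libraries were grouped by title. Counts were rounded and tested with edgeR 4.0.16 (R 4.3.3, limma 3.58.1): filterByExpr, TMM scaling, robust quasi-likelihood F test on group, two-sided, Benjamini-Hochberg adjustment over the 17207 genes tested. SE was taken as log2 fold change over the root of F. The test was tried on simulated data, in which far fewer genes changed than were called here. Gene positions and lengths came from GENCODE 29 (GRCh38), matched for 58444 identifiers (96.4%). Intervals and floors (3 counts) cover counting error only. The members, classes and lists were chosen with earlier results of these data known, and list members are no independent evidence. Every collagen with at least 10 counts is named, and of each partner list the 3 genes highest in CPM and the 2 furthest changed among those called. Partner genes beyond these were named after their values were seen. Replicates differed beyond sampling noise (chi-square per degree of freedom 3.56 and 1.95). Protein sequences were not used here. Alternatives were other scalings, filters and tools (DESeq2 1.42.0, limma voom), a replicate block, and leaving out each library.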

Additional observations from a re-analysis of the deposited data

How the results depend on the processing

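The count of collagens called lower was 21 to 25 over the 12 alternatives and that of collagens called higher 7 or 8, the eighth being COL6A5 under looser filters and in the DESeq2 Wald test, which called 21 lower (COL4A4, COL19A1, COL20A1 and COL21A1 were lost). Of 408 recomputed fold changes of the 34 genes, 395 kept their direction and side of the threshold and 12 lost the call, 4 of COL4A4, 6 of COL21A1 and 1 each of COL19A1 and COL20A1. COL9A3, not called, ranged from -0.0746 (without untreated replicate 1) to 0.16 (without untreated replicate 2). Leaving out single libraries kept 24 lower and 7 higher. Deviations of same-numbered libraries did not go together (correlation -0.0014), which cannot tell whether those libraries were prepared together. With the replicate block 24 collagens were lower and 7 higher, COL21A1 being lost (edgeR adjusted p = 0.0524).

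With the library total alone as scaling, the median of all genes was 0.04 and the log2 ratio of summed levels was -1.02 (fibrillar), -1.62 (type IV), -1.73 (type VI), -0.97 (FACIT), -1.72 (other) and -1.47 (all), and with DESeq2 size factors -1.78 for type VI. Without length scaling the class shares, untreated and treated, were 28.9% and 39.4% (fibrillar), 0.649% and 0.584% (type IV), 61.9% and 51.8% (type VI), 1.65% and 2.34% (FACIT) and 6.90% and 5.83% (other), so that the type IV share turned from slightly higher to lower. With the longest transcript as length, mean chain ratios untreated and treated were 4.2 and 2.33 (COL1A2 to COL1A1), 2.33 and 4.24 (COL4A2 to COL4A1), 1.79 and 1.45 (COL4A5 to COL4A6), 3.25 and 1.51 (COL5A1 to COL5A2), 0.911 and 0.812 (COL6A1 to COL6A2), 0.267 and 0.154 (COL6A3 to COL6A1), 19.5 and 11.7 (COL8A1 to COL8A2) and 7.07 and 1.78 (COL9A2 to COL9A3). Among the lists, export genes called lower were 8 in the main test, 4 in the DESeq2 Wald test and 5 without untreated replicate 2, those called higher 3 and, by library total, 7, and proteases called lower 5 and, by library total, 3. The causes were not tested. Depth limits the collagens under 0.5 CPM, where a few counts set the fold.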
